A study of Mus musculus with 6 samples.

Results

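Elastic fibres are the extracellular structures that let skin, arteries and lungs recoil. Here the RNA of 10 listed elastic fibre and crosslinking genes was examined in mouse mesenchymal stem cell clones with and without Dicer, the ribonuclease that makes mature microRNAs. The genes were taken by symbol from the platform annotation and each was represented by its brightest transcript cluster, the array's unit for 1 transcribed locus. Of the 10, 7 were measured among 18997 genes in all: Fbln5, Fbln1, Fbln2, Eln, Loxl1, Loxl2 and Mfap5. Efemp2, Fbn1 and Lox have no cluster with a single gene name in the annotation used, and were not analysed here. Fbln5 was picked by its lower level in the Dicer-null clones, so its values in that contrast are given as a description with no test. The list as a whole was drawn up with earlier results of these arrays known.

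The 6 arrays, 1 per clone, came from undifferentiated cultures under normal conditions, with array medians of 3.01 to 3.21. The cells were taken from hindlimb marrow of a 1-year-old Dicerflox/flox mouse, immortalised by a retrovirus with SV40 Large T Antigen and cloned. The Dicer-carrying group (n = 2) held clones 6 and 12, whose genotype is labelled Dicer+/+. The Dicer-null group (n = 4), labelled Dicer-/-, held clones 6.8 and 6.9 derived from clone 6, and clones 12.2 and 12.4 derived from clone 12. Null clones were infected with Adeno-Cre-GFP, sorted on GFP and cloned again. No Dicer-carrying array had gone through those steps, so they and the loss of Dicer cannot be told apart. Each line is 1 clone and each clone 1 array, sister null clones share 1 parental array, and p-values thus measure only the spread between these clones. The array titled 6.9 has a cell type label naming 6.8, and the title was followed.

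In the textbook account, fibrillin microfibrils form a scaffold on which tropoelastin, the product of Eln, is laid down. Fibulin-5 (Fbln5) and fibulin-4 (Efemp2) bind tropoelastin and bring it together with lysyl oxidases. Those copper enzymes oxidise lysines so that elastin and collagen chains become crosslinked.

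The targeted gene and the cell type were checked first. Dicer1 differed by -0.10 ± 0.14 (log2, SE), but the sources used here do not say whether its probes lie in the deleted part, so this checks no label. The labels report genotyping PCR for the deletion. Of 12 mesenchymal stromal markers 11 were measured, and their summed level, as log2 of the summed linear values, was 13.5 to 13.6 in Dicer-carrying and 12.8 to 13.3 in null clones. That sum is carried by the brightest genes and its members differed in direction: Col1a1 and Col1a2 were lower in all 4 null clones, with changes of -0.93 and -1.01, and Vcam1 and Col3a1 higher, with 3.16 and 1.12. None of these passed in limma, with adjusted p of 0.399, 0.132, 0.0548 and 0.11. Thy1, which marks stromal cells, was dim on every array, at 2.52 to 2.74. The 6 haematopoietic and 8 endothelial markers measured all had means under 4 over the arrays. The 5 osteoblast markers measured of 8 listed, Sp7, Alpl, Ibsp, Dmp1 and Phex, were all lower in all 4 null clones, with a summed level of 13.2 on both Dicer-carrying arrays and 6.72 to 11.7 on null arrays. That of 8 smooth muscle markers was 12.5 to 12.8 in Dicer-carrying and 10.5 to 12.6 in null clones. The part of these markers in any result was not tested.

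The RefSeq promoter windows of Fbln5 and Fbln2 are shown because these fibulins lay on opposite sides of the Dicer-carrying range in all 4 null clones. Each runs from 250 bases before to 50 bases after a start, 5′ to 3′ on the gene's strand, in assembly GRCm38.p6, with Fbln5 at chr12:101819070-101819369 (minus strand) and Fbln2 at chr6:91212514-91212813 (plus strand). Capitals mark GGGCGG, the core bound by Sp1, and CAGAC, a motif bound by SMAD proteins, on either strand.
Fbln5: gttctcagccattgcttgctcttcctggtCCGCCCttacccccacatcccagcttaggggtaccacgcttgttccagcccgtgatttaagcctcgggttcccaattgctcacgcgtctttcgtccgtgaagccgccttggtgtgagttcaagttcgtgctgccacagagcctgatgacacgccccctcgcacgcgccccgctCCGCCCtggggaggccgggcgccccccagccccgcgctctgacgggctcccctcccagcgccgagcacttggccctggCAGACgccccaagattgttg
Fbln2: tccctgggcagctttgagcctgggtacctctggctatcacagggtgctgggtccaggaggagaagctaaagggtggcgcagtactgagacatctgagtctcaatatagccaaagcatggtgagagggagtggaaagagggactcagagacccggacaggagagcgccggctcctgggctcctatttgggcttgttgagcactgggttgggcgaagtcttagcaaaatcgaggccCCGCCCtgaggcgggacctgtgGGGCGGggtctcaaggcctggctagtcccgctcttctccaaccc
GGGCGG occurred 2 times in each window and in 35.7% of all 32851 windows. CAGAC occurred 1 time in that of Fbln5, 0 times in that of Fbln2, and in 49.6% of all windows. TGANTCA, the AP-1 motif, and TATAAA, the TATA box, occurred 0 times in both, against 7.81% and 13.6% of all windows. The Fbln5 window had 65.7% G and C and the Fbln2 window 60.3%, with a median of 52.7% over all windows. Fbln5 has a second window in the table, from a start further into the gene, with 2 CAGAC and 0 GGGCGG. These matches are letters in a window and not measured sites.

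Fbln5, which encodes fibulin-5, had log2 levels of 8.48 and 8.22 in clones 6 and 12. In the null clones it had 3.03 in 6.8, 2.90 in 6.9, 2.90 in 12.2 and 3.30 in 12.4. All 4 null values lay far below both Dicer-carrying values. They were not shown to be above background, since no detection calls were used here, so whether any transcript was left is not known and the size of the change is that of the array values only. The change was -5.45 and -5.58 in clones 6.8 and 6.9, and -5.33 and -4.92 in 12.2 and 12.4. The mean change of the log2 values was -5.32 ± 0.17 (SE). Expressed genes (mean over the arrays above 6) of chromosome 12, which carries Fbln5, had a median change 0.42 higher than that of all expressed genes, opposite in direction to Fbln5. In these bulk cultures fewer cells with a transcript and less of it per cell cannot be told apart. The osteoblast markers were lower in the same 4 clones.

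**Figure D1:**
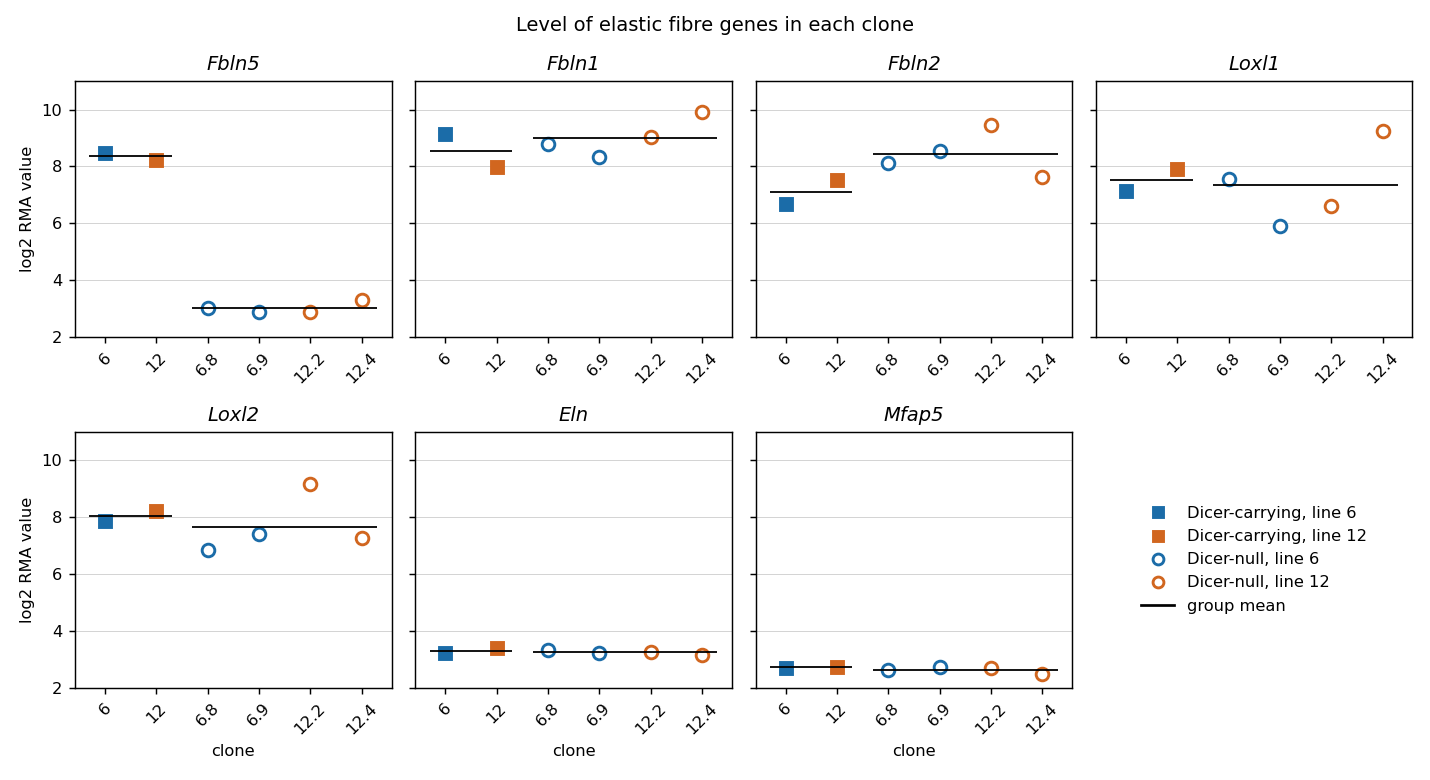
Log2 RMA value (y axis) of the 7 measured elastic fibre genes in each of the 6 clones (x axis), with filled squares for Dicer-carrying clones, open circles for Dicer-null clones, blue for line 6, orange for line 12 and black lines for group means. Fbln5 sits above 8 in both Dicer-carrying clones and near 3 in all 4 null clones, while Eln and Mfap5 lie at 2.49 to 3.41 throughout.

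Neither of the 2 other listed fibulins measured here was lower in all 4 null clones. Fbln2, a large fibulin of basement membranes and elastic fibres, had 6.68 and 7.54 in parental clones 6 and 12, 8.12 and 8.54 in daughters 6.8 and 6.9, and 9.44 and 7.63 in daughters 12.2 and 12.4. All 4 null values were above both Dicer-carrying values, although clone 12.4 exceeded its parent by only 0.09. The change of Fbln2 was 1.32 ± 0.55 (SE), with a 95% interval of -0.10 to 2.75. Its adjusted p was 0.4 in limma, so it did not pass. Fbln1, which binds fibronectin and many matrix proteins, had 9.14 and 7.98 in parental clones 6 and 12, 8.80 and 8.33 in daughters 6.8 and 6.9, and 9.02 and 9.91 in daughters 12.2 and 12.4. Its groups overlapped, and its lowest value was that of Dicer-carrying clone 12. The mean change of Fbln1 was 0.46 ± 0.56 (SE), with an adjusted p of 0.857 in limma.

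The lysyl oxidase genes differed more among the null clones than between the groups. Loxl1, the family member tied to elastin renewal and fibulin-5, had 7.15 and 7.90 in parental clones 6 and 12, 7.57 and 5.92 in daughters 6.8 and 6.9, and 6.63 and 9.23 in daughters 12.2 and 12.4. The lowest and the highest of all 6 values were both null clones, 3.30 apart. Loxl1 had a mean change of -0.19 ± 0.87 (SE), with a 95% interval of -2.46 to 2.08, and did not pass in limma (adjusted p 0.981). It lies on chromosome 9, where the median change was 0.47 below that of all expressed genes, and after centring on the chromosome its change was 0.30. Loxl2, which crosslinks collagen IV and other matrix proteins, had 7.87 and 8.21 in parental clones 6 and 12, 6.84 and 7.41 in daughters 6.8 and 6.9, and 9.16 and 7.26 in daughters 12.2 and 12.4. Of the null clones 3 were below both Dicer-carrying values and 12.2 was above them. The change of Loxl2 was -0.37 ± 0.59 (SE), with an adjusted p of 0.908 in limma. Its chromosome, 14, had medians relative to all expressed genes of -0.31 and -0.29 in clones 6.8 and 6.9 and of 0.29 and 0.28 in 12.2 and 12.4, and the part of this in Loxl2 was not tested.

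The elastin gene itself was dim on every array. Eln had 3.22 and 3.41 in parental clones 6 and 12, 3.35 and 3.25 in daughters 6.8 and 6.9, and 3.28 and 3.16 in daughters 12.2 and 12.4. Its groups overlapped. Mfap5, a microfibril-associated glycoprotein, had 2.71 and 2.73 in parental clones 6 and 12, 2.62 and 2.75 in daughters 6.8 and 6.9, and 2.69 and 2.49 in daughters 12.2 and 12.4. Both genes had changes near 0, of -0.06 ± 0.12 (SE) for Eln and -0.08 ± 0.11 (SE) for Mfap5. Neither passed in limma, with adjusted p of 0.936 for Eln and 0.884 for Mfap5.

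Across the list, 1 of 7 measured genes passed an adjusted p of 0.05 in limma, against 0.59% of all genes, and that 1 was Fbln5, which had been picked for it. Of the other 6, 0 passed in limma and 0 had an unadjusted p under 0.05, with a median change of -0.07 beside -0.02 over all 18997 genes. In 2 of 7 genes, Fbln5 and Fbln2, all 4 null clones lay outside the range of both Dicer-carrying clones, as did 23.4% of all genes. Nothing is read from these shares, since the contrast had been used to draw up the list.

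**Figure D2:**
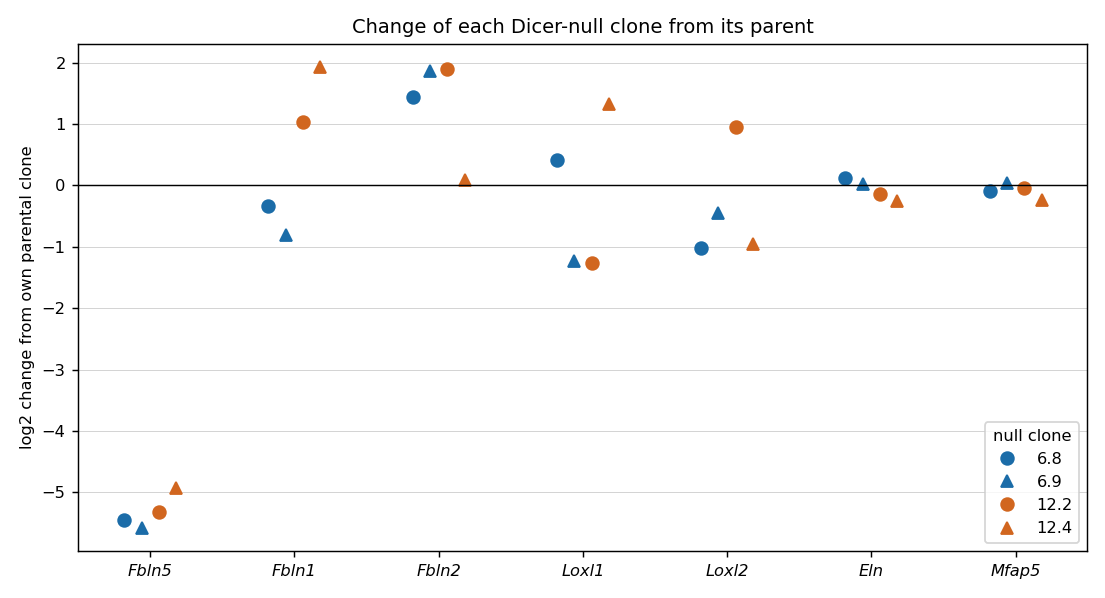
Log2 change of each Dicer-null clone from its own parental clone (y axis) for the 7 measured genes (x axis), with circles for clones 6.8 and 12.2, triangles for 6.9 and 12.4, blue for line 6 and orange for line 12. Fbln5 is at -4.92 to -5.58 in all 4 clones, whereas Loxl1 and Loxl2 have clones on both sides of 0.

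Among the members brighter than 5 in every null clone, the lysyl oxidases differed most from clone to clone. The SD over the 4 null clones was 0.66 for Fbln1, 0.77 for Fbln2, 1.43 for Loxl1 and 1.02 for Loxl2, beside a median of 0.36 over 5409 expressed genes. Loxl1 varied more than 98.5% of expressed genes and Loxl2 more than 95.8%. Fbln5, Eln and Mfap5 were dim in all 4 null clones, with SDs of 0.19, 0.08 and 0.11, and no agreement between clones is read from values so low. Of the sister clones of line 12, 12.4 exceeded 12.2 by 2.60 for Loxl1 and 0.89 for Fbln1. It was below 12.2 by differences of -1.90 for Loxl2 and -1.81 for Fbln2. These sisters lay on opposite sides of parental clone 12 for Loxl1 and Loxl2, and both above it for Fbln1 and Fbln2. For line 6 the difference of 6.9 from 6.8 was -1.64 for Loxl1, 0.57 for Loxl2, -0.47 for Fbln1 and 0.41 for Fbln2. The median absolute difference over expressed genes was 0.38 in line 12 and 0.39 in line 6.

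Whether the lines responded alike was tested by an interaction contrast with 2 residual degrees of freedom. These come only from the pairs of sister null clones, since each line has a single parental array. The SEs, intervals and p-values of this contrast thus hold no observed spread between parental arrays of a line. Fbln1 had the largest estimate among the members, with changes of -0.34 and -0.81 in clones 6.8 and 6.9 and of 1.04 and 1.93 in 12.2 and 12.4. The difference between lines was 2.06 ± 0.67 (SE), with a 95% interval of 0.11 to 4.00, and in limma its unadjusted p was 0.0428 and its adjusted p 0.9997. The parental clones differed by 1.15 for Fbln1, clone 6 being the higher. For Fbln5 the difference between lines was 0.39 ± 0.34 (SE), with an interval of -0.58 to 1.36. The intervals of Loxl1, from -5.28 to 6.15, Loxl2, from -2.96 to 4.44, and Fbln2, from -4.14 to 2.83, were wide. This test called 0 of 18997 genes in limma, with 569 at an unadjusted p under 0.05, and the line term of the blocked model called 0 with 999.

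Further genes of elastic fibre biology came from 5 lists of 50 genes, of which 49 were measured. Over these, 1 fell and 0 rose past the threshold in limma, where 0.59% of all genes passed in either direction. The median change was -0.01 beside -0.02 over all genes. An unadjusted p under 0.05 was found for 14, or 28.6%, beside 13.7% of all genes and 22.3% of expressed genes. Sod3, the extracellular superoxide dismutase that binds fibulin-5, was the 1 that fell. Its levels were 3.98 and 4.67 in parental clones 6 and 12, 2.53 and 2.60 in daughters 6.8 and 6.9, and 2.79 and 2.55 in daughters 12.2 and 12.4. All 4 null values were below both Dicer-carrying values, a change of -1.70 ± 0.17 (SE) with an adjusted p of 0.0437 in limma. Sod3 was dim, with a mean of 3.19 over the arrays. The adjusted p of Sod3 in limma was 0.0528 when line was a random effect, 0.0799 when sister clones were averaged, 0.056 after a further quantile normalisation, and 0.0815 to 0.292 with 1 array left out.

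Among 4 other fibulins and hemicentins 0 passed. Fbln7, a small fibulin found in teeth and cartilage, had 3.54 and 3.78 in parental clones 6 and 12, 7.52 and 8.38 in daughters 6.8 and 6.9, and 3.24 and 7.63 in daughters 12.2 and 12.4. It was bright in 3 null clones and dim in 12.2 as in both parents, and its change of 3.04 ± 1.40 (SE) had an adjusted p of 0.46 in limma. A second transcript cluster of Fbln7 had a change of 1.70. There clone 12.2, at 3.93, was above both parental values of 3.61 and 3.62, and was still the lowest null clone. Hmcn2, a hemicentin, had a change of -0.52 ± 0.47 (SE), which was -0.09 as the mean of all its clusters, -0.96 without clone 6 and -0.08 without clone 12.

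Of 16 other microfibril genes 0 passed, 4 were higher and 4 lower in all 4 null clones than in their parents, and the median change was -0.05. Over all genes 13.1% were higher and 18.9% lower by that criterion, and over expressed genes 19.9% and 21.4%. Adamtsl4, a fibrillin-binding protein, had changes from the parental clones of 1.21 and 1.99 in clones 6.8 and 6.9 and of 0.79 and 1.83 in 12.2 and 12.4, with an adjusted p of 0.208 in limma. Ltbp3, a latent TGF-beta binding protein, had 1.96, 2.93, -0.39 and 1.17 in the same order. Chosen after their values were seen, Emilin1, an elastin interface glycoprotein, had a change of 1.39 ± 0.42 (SE), and Ltbp4, which works with fibulin-5 in elastin assembly, one of -1.13 ± 0.21 (SE) with an adjusted p of 0.115 in limma. Ltbp4 was lower in all 4 null clones, but was dim, with a mean of 3.41 over the arrays. Its levels were 3.77 and 4.55 in parental clones 6 and 12, and 2.92 to 3.20 in the null clones.

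Of 9 genes for other lysyl oxidases and their activation 0 passed, and 3 were lower and 1 higher in all 4 null clones than in their parents. The shares lower and higher were 18.9% and 13.1% over all genes, and 21.4% and 19.9% over expressed genes. Loxl3, a further member of the lysyl oxidase family, had levels of 8.20 and 7.77 in parental clones 6 and 12, 6.88 and 6.35 in daughters 6.8 and 6.9, and 6.26 and 6.98 in daughters 12.2 and 12.4. These did not overlap, and the change of -1.37 ± 0.28 (SE) had an adjusted p of 0.137 in limma. Loxl4, chosen after its values were seen, had 8.34 and 9.23 in the Dicer-carrying clones and 7.41 to 7.59 in the null clones, a change of -1.31 ± 0.24 (SE) with an adjusted p of 0.113 in limma. Unlike those of Loxl1 and Loxl2, the null values of Loxl3 and Loxl4 were all below both Dicer-carrying values, a difference between genes that was not itself tested. Postn, the matricellular protein periostin, had 9.74 and 8.17 in parental clones 6 and 12, 5.92 and 3.58 in daughters 6.8 and 6.9, and 3.80 and 7.38 in daughters 12.2 and 12.4. Its change of -3.78 ± 1.32 (SE) had an adjusted p of 0.32 in limma, with clone 12.4 only 0.79 below its parent. Atp7a, the copper pump that loads lysyl oxidases and was chosen after its values were seen, was higher in all 4 null clones, by 1.12 ± 0.17 (SE) with an adjusted p of 0.0852 in limma. Fn1, fibronectin, also chosen so, was bright on every array at 11.6 to 12.1 and had a change of -0.18 ± 0.16 (SE).

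Of 9 enzymes that degrade elastin 0 passed, and 7 had a mean level under 4. Mmp2, gelatinase A, had 7.54 and 8.66 in parental clones 6 and 12, 4.23 and 3.27 in daughters 6.8 and 6.9, and 7.32 and 5.45 in daughters 12.2 and 12.4, all below both Dicer-carrying values. Its change was -3.04 ± 0.69 (SE) with an adjusted p of 0.163 in limma. Ctsl, the lysosomal cathepsin L, had a change of 0.69 ± 0.21 (SE). Among 11 genes of the elastin receptor and of fibulin-5 partners, Sod3 passed. Of these 11, 5 were higher in all 4 null clones than in their parents, beside 13.1% of all genes and 19.9% of expressed genes. Chosen after their values were seen, the integrin chains Itga5 and Itgb3 had changes of 1.58 ± 0.26 (SE) and 1.38 ± 0.33 (SE), with adjusted p of 0.0977 and 0.18 in limma. In 19 of the 49 genes, or 38.8%, the null clones lay outside the Dicer-carrying range, 8 below and 11 above. The share was 23.4% over all genes and 31.2% over expressed genes.

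**Figure D3:**
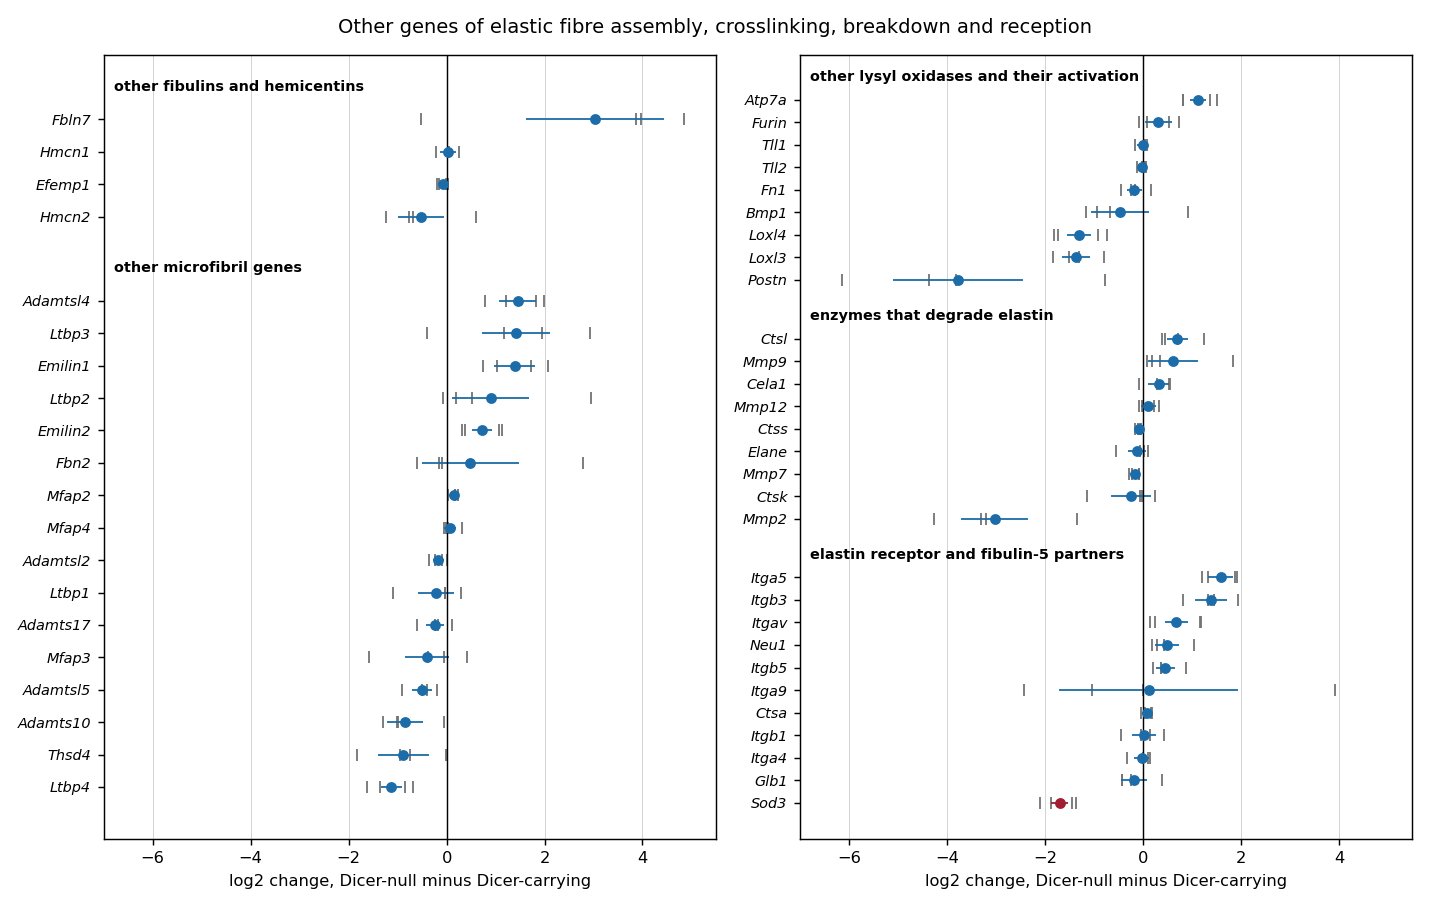
Log2 change, Dicer-null minus Dicer-carrying (x axis), of the 49 measured related genes in their 5 lists (y axis), as points with SE bars and grey ticks for each null clone against its parent. Sod3, in red, is the 1 gene past an adjusted p of 0.05 in limma, and Postn and Mmp2 have the lowest mean changes at -3.78 and -3.04.

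The genes whose pattern was most like that of Fbln5 were found by the distance between log2 profiles over the 6 arrays, each centred on its own mean. Fbln5 was picked for its fall, and this distance follows the size of that fall. Genes with a like fall thus come first by construction. The 5 nearest were Ifitm5, an osteoblast membrane protein, at 0.55, Phex, a bone endopeptidase, at 0.68, Pcsk6, a proprotein convertase, at 0.82, and Tmem45a and Galnt3, a glycosyltransferase, both at 0.88. Phex is also in the osteoblast marker list. The null values of these 5 genes were low, at 2.64 to 3.93, so no likeness between null clones is read from them. Pearson correlations of the 5 nearest genes with Fbln5 were 0.992 to 0.998 over 6 arrays, which share parental clones. A correlation above 0.9 was found for 577 of 18997 genes, so a high value is not particular to these 5. Ranked by correlation in place of distance, 0 of these 5 were among the first 5. Ifitm5 was 6th by correlation, Phex 19th, Tmem45a 22nd, Pcsk6 27th and Galnt3 29th. None of these 5 was in the elastic fibre lists. With 18997 genes in all, some related genes still ranked high by distance. Postn was 52nd, Mmp2 127th, Sod3 144th and Loxl3 263rd. No other member was near, since the nearest, Loxl2, ranked 6319th.

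**Figure D4:**
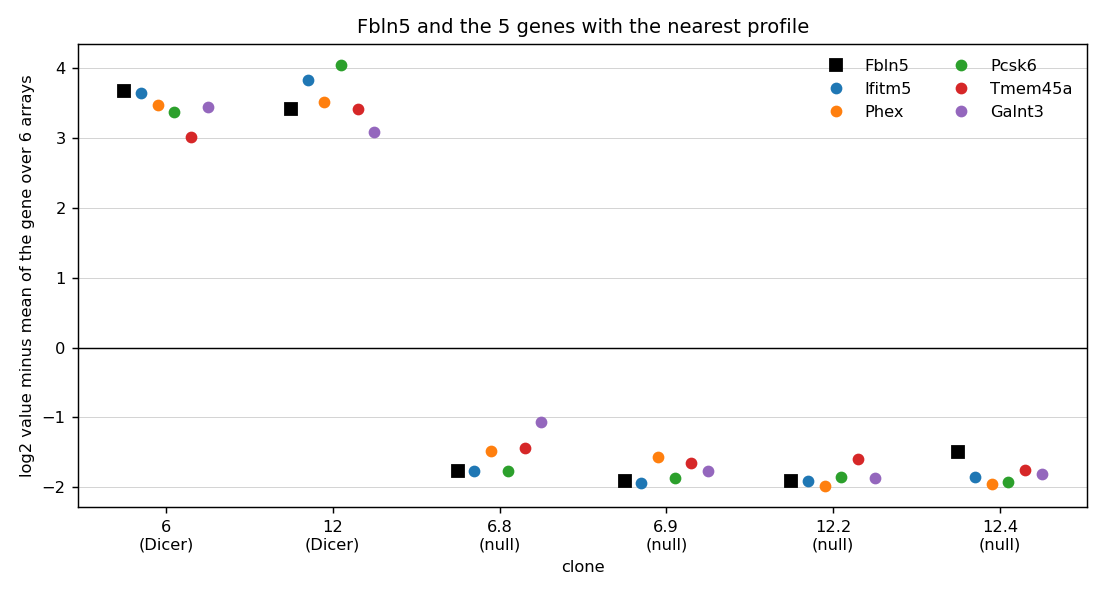
Log2 value minus the gene's mean over the 6 arrays (y axis) in each clone (x axis) for Fbln5, as black squares, and for the 5 genes with the nearest profile, as coloured points. All are above 0 in clones 6 and 12 and below 0 in the 4 null clones.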

How the data were processed

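Total RNA of 6 clones was measured on Affymetrix exon arrays, 1 array per clone. The deposited table held log2 values of 44343 transcript clusters; Partek 6.5 and RMA are named, per the submitters' processing notes, with no role. The genome build and scan dates are not given in the sources used here. RMA normalisation would hide a shift shared by all genes, and the number of arrays limits precision.

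Clusters with 1 gene in the platform annotation (22781, of which 22485 matched assembly GRCm38.p6 by Entrez identifier) were used. Differences were fitted over all 18997 genes with limma 3.58.1 in R 4.3.3, with parental line as a fixed block, empirical Bayes moderation on 3 residual degrees of freedom and Benjamini-Hochberg adjustment, threshold 0.05. The fit was run on simulated data with independent noise, no line effect and no likeness of sister clones. That run required only that planted changes be recovered on average, so it does not bear on the limits of the design. The pairing of daughters with parents comes from the clone names in the titles. Over expressed genes, the line difference of parental arrays correlated at 0.16 with that of null arrays.

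Members and lists were chosen with earlier results of these data known. Named genes were the members, the related genes past the threshold or else the 2 with the largest change in a list, the 5 nearest to Fbln5 by profile, the 2 members nearest to it by change (Loxl2 and Loxl1), and Dicer1. Alternatives changed the block, sister clones, dim genes (mean under 4), normalisation, cluster summary, moderation and arrays used.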

Additional observations from a re-analysis of the deposited data

Results flagged for a closer look

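The log2 levels of the 4 null clones were examined in 56 genes with Dixon's criterion (95%). By it about 1 in 20 groups stands out by chance, and in 6 genes a clone stood apart. Fbln7 was low in clone 12.2, at a log2 level of 3.24, and Ctsl was high there at 10.6, as was Mmp9, gelatinase B, at 4.38. In clone 12.4 Fbn2, a fibrillin, was high at 5.98 and Ctsk, cathepsin K, at 3.88. Itgb3 was high in clone 6.9, at 5.57. The levels were pooled over both lines, and the criterion was not run on changes from the parent. Against parental clone 12, clone 12.4 was higher by 0.25 for Ctsk and 2.79 for Fbn2. Its sister 12.2 had the larger change for Ctsk, of -1.15. Itgb3 exceeded its parent by 0.81 in 6.8, 1.94 in 6.9, 1.45 in 12.2 and 1.33 in 12.4. Whether any clone stands apart by its change was not tested.

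In 5 of the 56 genes both null clones of line 6 lay on 1 side of their parent and both of line 12 on the other. No share over all genes is given beside this count, so nothing is read from it. The response of line 12 minus that of line 6 was 2.06 for Fbln1, -0.27 for Eln, -0.19 for Mfap4, -0.12 for Tll2 and -0.37 for Elane. In the interaction test each had an adjusted p of 0.9997 in limma. Apart from Fbln1, these genes were dim in every clone.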

How the results depend on the processing

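The mean change of Fbln5 lay between -5.73 and -5.12 over the alternatives, given as a description since the gene was picked for it. The count of members past the threshold ranged from 0 to 1 over arrays left out in turn; it was 0 in limma without clone 6, with 2 members at an unadjusted p under 0.05, and 0 without clone 12, with 1. It holds no support, since it counts Fbln5. The count over all genes in limma was 112, 220 with no replicate block, 15 with sister clones averaged and 233 with trend and robust moderation. It ranged from 0 to 17 with 1 array left out, being 0 without clone 6 or clone 12, where 1654 and 1493 genes had an unadjusted p under 0.05, 12 without 6.8, 13 without 6.9, 17 without 12.2 and 2 without 12.4. The 1 related gene called, Sod3, became 0 with line as a random effect, with sister clones averaged, after a further quantile normalisation, with dim genes left out (a filter that removes Sod3), and with each array left out (0 to 0), with 7 to 19 related genes at an unadjusted p under 0.05 in limma. The interaction and line counts were 0 in limma in each alternative run, with 122 to 950 and 427 to 1484 genes at an unadjusted p under 0.05. The interaction could not be fitted without a parental array.

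Small mean changes turned sign, and the cause was not tested. Eln was 0.0155 and Fn1 0.0196 after quantile normalisation, and Eln 0.0234 with arrays centred. On the chromosome-centred scale Loxl1 was 0.30 and Mfap5 0.00981. Dicer1 kept its sign on that scale but was further from 0, at -0.51 ± 0.16 (SE). With 1 array left out, Loxl1 ranged from -0.78 to 0.34, Loxl2 from -0.83 to 0.00054, Fbln1 from -0.57 to 1.49, Eln from -0.192 to 0.0761 and Dicer1 from -0.269 to 0.0671. The other named genes kept their direction in each alternative run, but the change of Fbln7 was 1.66 and that of Ltbp3 0.39 without clone 6, and without clone 12 that of Ltbp3 was 2.44, of Ctsl 0.42 and of Loxl4 -0.84. Log2 levels near 3 limit what can be said of Eln, Mfap5 and the null values of Fbln5.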

Other observations

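Itga9, an integrin chain in the list of elastin receptor and fibulin-5 partners, had the widest range of the 49 related genes over the null clones. Its log2 levels were 5.49 in 6.8, 6.54 in 6.9, 2.87 in 12.2 and 9.22 in 12.4, beside 6.55 and 5.29 in the parents. It was singled out after its values were seen, and its groups overlapped.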
